A study of Mus musculus with 4 samples.

Results

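Sox7, Sox17 and Sox18 make up the SOXF group of SRY-related HMG-box transcription factors, and their transcripts are described here in the endothelial-like cells of mouse cortex. The 3 genes were chosen by symbol from the 32285 genes in the deposited gene tables, with earlier results of these data known, so their levels and ratios are a description and carry no test. All 3 had enough UMIs (unique molecular identifiers, each standing for 1 captured transcript) in endothelial-like cells to be measured in every library. The samples are 4 single-cell RNA-seq libraries from 10-month-old male C57BL/6N mice, each made from the pooled tissue of 4 to 5 animals. The dissected tissue comprised the lesion core and a margin of about 2 mm of cortex, and cells were stained for CD31, an endothelial surface protein, and CD45, a leukocyte surface protein. Which of the stained fractions were collected is not given in the sources used here, so shares of cell classes below are shares of the collected cells and not of the tissue. The 4 groups were sham surgery with an isotype control antibody, dMCAO stroke surgery with the isotype control, dMCAO with an antibody to VCAM1, and dMCAO with an antibody to VLA4, and each antibody was given for 10 weeks. VCAM1 is an adhesion molecule on activated endothelium, and VLA4 is the leukocyte integrin that binds it. With 1 library per group, the spread between animals was not measured, and every interval below covers counting error only, at 95%. A difference between groups therefore cannot be told apart from a difference between single libraries.

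SOXF proteins bind DNA through a shared HMG box and act partly redundantly in the specification of arteries, in lymphatic development and in the integrity of the vessel wall. Sox17 is best known for its role in arterial identity and in Wnt-dependent maturation of brain endothelium. Sox18 is mutated in the ragged mouse and in a human syndrome of hair loss and lymphatic and vascular defects, and it regulates junction and lymphatic genes. Sox7 acts in early haemato-endothelial development and in vascular branching.

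The libraries held 1514, 2832, 4657 and 6209 cells after filtering, in the order sham isotype, stroke isotype, anti-VCAM1 and anti-VLA4, which is kept throughout. Of these, 548, 645, 2375 and 3053 were endothelial-like, or 36.2%, 22.8%, 51.0% and 49.2%, with a median of 3888.5, 3805, 4045 and 4378 UMIs per cell. All 15 endothelial markers were detected in these cells in every library. Their summed level was 28407, 27955, 28986 and 28357 CPM (UMIs summed over the cells and scaled to a common total). Pecam1, which encodes CD31, was found in 86.5% to 89.6% of the cells. The same 15 markers were used to name the cells, so their presence is no separate check of the label. The sham isotype and stroke isotype libraries shared 53 cell barcodes, 3.50% of the smaller library, against 1 to 7 for the other pairs, and 6 of the 53 were endothelial-like in both. The microglia marker list (10 genes, none at 0) summed to 82.4, 351, 139 and 140.3 CPM in endothelial-like cells, so it was highest in the stroke isotype library. Without the cells that held 3 or more of these UMIs the sum was 75.1, 108, 107 and 104 CPM.

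Transcripts of the 3 genes lay almost wholly in endothelial-like cells, which held 93.1% of the Sox7, 92.1% of the Sox17 and 91.3% of the Sox18 UMIs of all kept cells. Over all libraries together, most of the rest, 5.14%, 5.68% and 6.59%, was in 1 unnamed cluster that carried endothelial and pericyte markers together. By library, that cluster held 0.322%, 1.41%, 6.38% and 6.49% of the Sox17 UMIs. Astrocyte-like cells held 0.859%, 1.41%, 0.0933% and 0.444%, and pericyte-like cells 0%, 2.03%, 1.29% and 1.22%. In the 5, 23, 30 and 41 astrocyte-like cells Sox17 stood at 46.6%, 37.8%, 13.7% and 44.7% of the endothelial-like level. Summed endothelial markers there were 19.6%, 13.03%, 26.1% and 34.03% of that level, and their part was not tested. In microglia-like cells Sox7 reached at most 0.223 CPM, Sox17 at most 1.64 CPM and Sox18 at most 1.41 CPM. T-cell-like cells held no Sox7 UMI in any of the 4 libraries, and Sox17 and Sox18 UMIs were found there in the anti-VLA4 library alone, at 7.56 and 1.26 CPM. In the 55 and 90 pericyte-like cells of the anti-VCAM1 and anti-VLA4 libraries Sox17 stood at 177 and 151 CPM and Sox18 at 221 and 181 CPM. Summed endothelial markers in those pericyte-like cells were 46.4% and 46.9% of the endothelial-like level, and their part in these values was not tested.

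**Figure D1:**
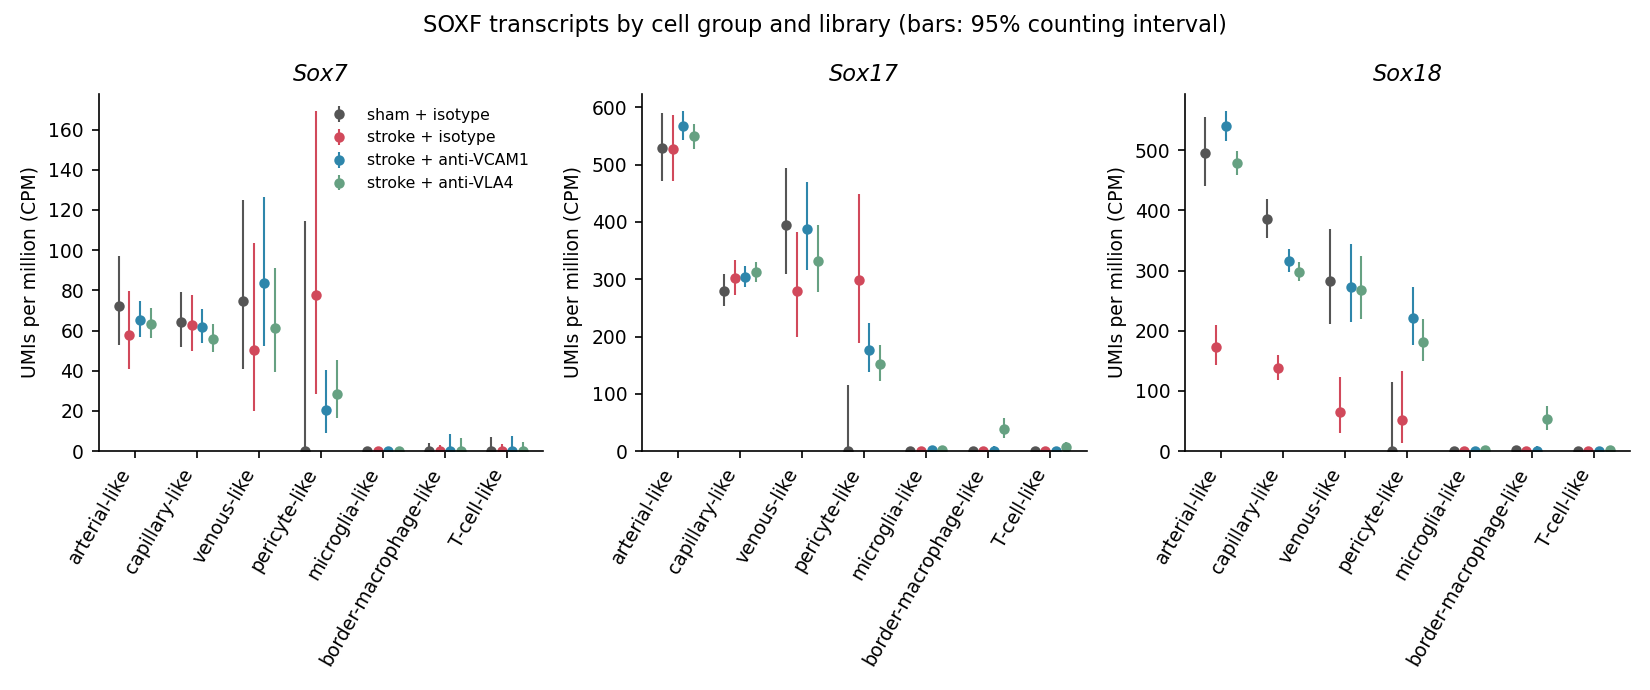
CPM (vertical axis) of Sox7, Sox17 and Sox18 in 3 endothelial segments and 4 other cell classes (horizontal axis) in the 4 libraries, with 95% counting intervals as lines. Sox18 in stroke isotype lies below the other 3 libraries in each endothelial segment, while Sox7 and Sox17 do not show such a separation, and the microglia-like and T-cell-like classes lie near 0.

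Sox18 was the member that set the libraries apart. Its gene (ENSMUSG00000046470) lies on the minus strand of chromosome 2 at 181669836 to 181671640 in the GENCODE M21 annotation of GRCm38. In endothelial-like cells Sox18 had 1076, 467, 5001 and 6522 UMIs. In the same order these gave 428 CPM (403 to 454), 163 CPM (149 to 179), 437 CPM (425 to 450) and 411 CPM (401 to 421). Stroke isotype was the low library, and its interval did not meet that of any other. The log2 ratio of stroke isotype over sham isotype was -1.39 (-1.55 to -1.23), a 2.62-fold lower level. Of the 3 members, Sox18 was past a log2 ratio of -0.5 in this comparison, as were 6.44% of the 10641 genes measurable in it, and its interval lay below 0, as for 10.2% of them. No member was past 0.5 or had an interval above 0, against 6.75% and 8.1% of genes. Since these values helped to choose the genes, nothing is read from those shares.

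Both antibody libraries had more Sox18 than stroke isotype. For anti-VCAM1 the log2 ratio was 1.42 (1.29 to 1.56), a 2.67-fold higher level. It was 1.33 (1.20 to 1.47) when VLA4 was blocked, or 2.51-fold. Past a log2 ratio of 0.5 lay 4.19% of 11840 genes in the first comparison and 4.4% of 12168 in the second, and intervals lay above 0 for 11.8% and 12.3%. The 2 comparisons share the stroke isotype library, so both rest on its 467 UMIs. Set against sham isotype instead, the Sox18 ratio of the anti-VCAM1 library was 0.03 (-0.06 to 0.13). That of the anti-VLA4 library was -0.06 (-0.15 to 0.04), and both intervals hold 0. These totals are over cells whose makeup differs between libraries. In 3 of the 6 endothelial-like clusters Sox18 was below sham isotype with its interval below 0, at -0.59 to -0.39 for anti-VCAM1 and at -0.54 to -0.29 for anti-VLA4, and no cluster had an interval above 0.

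**Figure D2:**
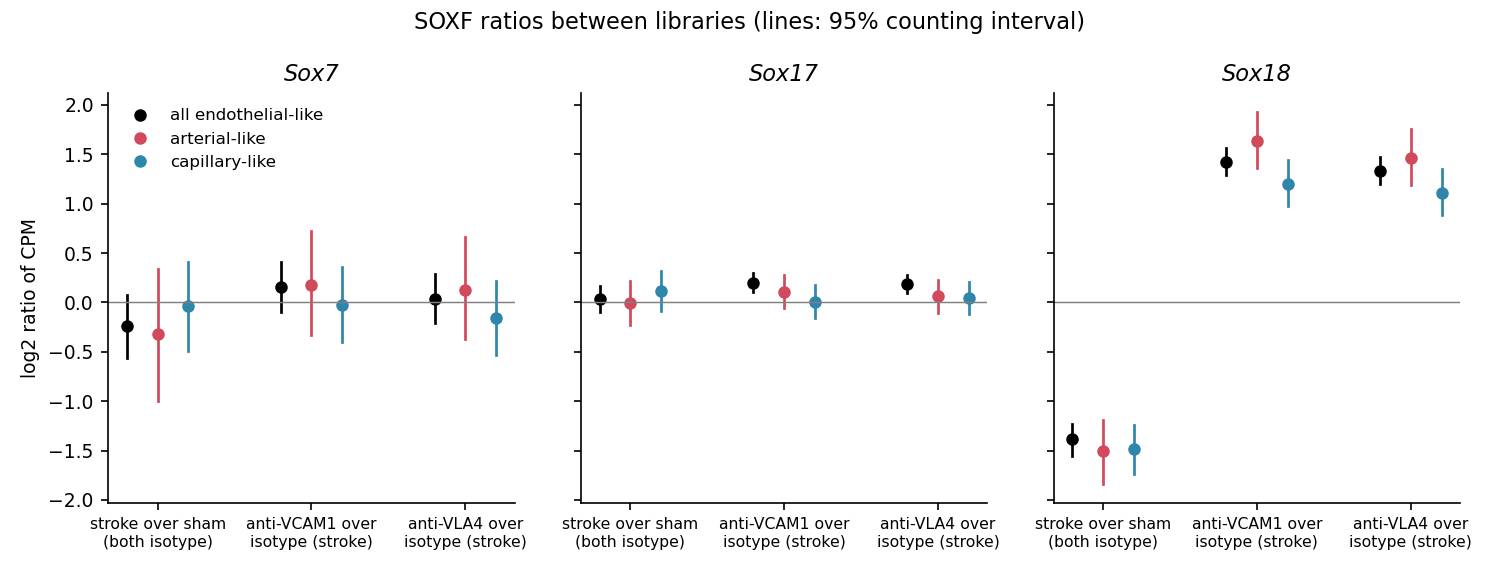
Log2 ratio of CPM (vertical axis) between libraries for the 3 members in 3 comparisons (horizontal axis), over all endothelial-like cells and in arterial-like and capillary-like cells, with lines for the 95% counting interval. Sox18 sits between -1.51 and -1.39 for stroke over sham and between 1.11 and 1.63 for both antibodies, whereas Sox7 and Sox17 stay near 0.

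The low Sox18 of stroke isotype was seen in each of the 6 endothelial-like clusters. In the 3 clusters with at least 50 cells in every library, sham isotype and stroke isotype stood at 533 and 201 CPM, 499.8 and 164 CPM, and 319 and 118 CPM. In the 3 smaller clusters they stood at 719 and 257 CPM, 573 and 219 CPM, and 313 and 62.7 CPM. Cells with a Sox18 UMI, after each cell was thinned to 1000 UMIs, made up 32.7% (28.7 to 36.9), 15.2% (12.5 to 18.3), 31.3% (29.4 to 33.2) and 31.3% (29.7 to 33.0) of endothelial-like cells. Without thinning the shares were 67.5%, 43.7%, 69.2% and 72.8%, against at most 0.650% of microglia-like cells, whose median depth was 5203 to 7341.5 UMIs. Thinning to 1000 UMIs left out 16, 34, 78 and 81 endothelial-like cells for lack of depth.

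At 3000 UMIs per cell, which left 358, 429, 1697 and 2345 endothelial-like cells, the distribution over cells could be read. Cells with 0 Sox18 UMIs were 36.0%, 62.9%, 35.5% and 35.1%, and cells with 3 or more were 16.8%, 2.56%, 17.7% and 14.5%. A Poisson distribution with the same mean would give 29.5%, 59.3%, 27.3% and 28.9% at 0. The variance over the mean was 1.26, 1.19, 1.48 and 1.42, lowest in stroke isotype, where the mean was also lowest. The 10 cells with most Sox18 held 10.5%, 14.3%, 3.13% and 2.58% of its UMIs. A fixed 10 cells hold a larger share where there are fewer cells and UMIs, so these shares do not compare concentration between libraries.

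**Figure D3:**
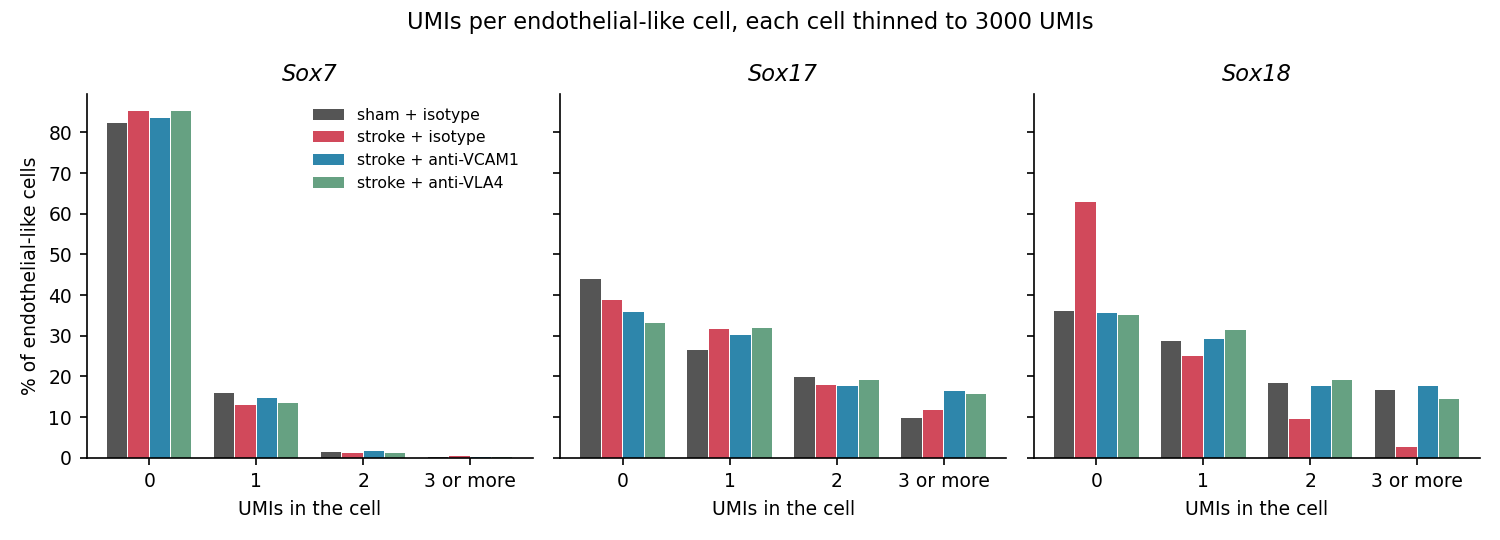
Share of endothelial-like cells (vertical axis, %) with 0, 1, 2 or 3 or more UMIs of each member (horizontal axis) after thinning to 3000 UMIs, 1 bar per library. For Sox18 the stroke isotype bar at 0 reaches 62.9% against 35.1% to 36.0% in the other 3 libraries, and for Sox7 the 4 bars at 0 lie between 82.4% and 85.3%.

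Ranked against all genes, Sox18 stood at an end of each comparison. It had the lowest ratio of the 4870 genes with at least 200 UMIs in stroke over sham, ahead of Ccn1, a matricellular protein, at -1.12. It had the highest of 7653 genes for anti-VCAM1, ahead of Snhg6 at 1.27, and the second highest of 8366 for anti-VLA4, after Amacr at 1.46. Sox7 stood at position 825 from the lowest and Sox17 at position 2994 in stroke over sham. A second measure, the distance on the log2 scale of stroke isotype below the lowest of the other 3 libraries, was 1.33 for Sox18, the largest of 9535 genes. Only 54 genes had a distance of at least 0.5, and the next were Nat2 at 1.01, Prodh at 0.98 and Snhg6 at 0.96, with 8, 11 and 18 UMIs in stroke isotype. Both measures were chosen after the Sox18 values had been seen.

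**Figure D4:**
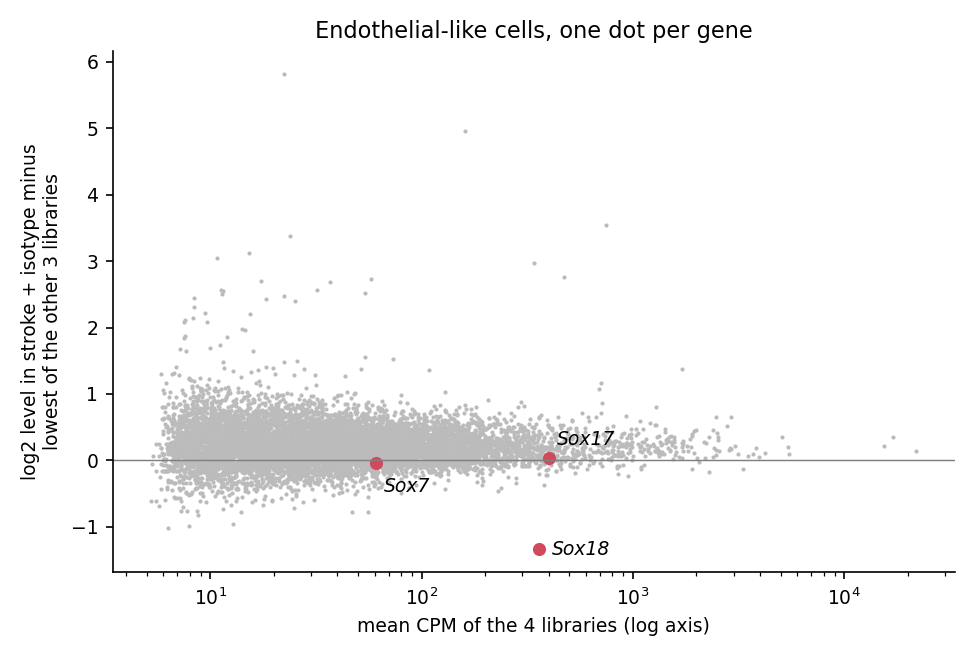
Log2 level in stroke isotype minus the lowest of the other 3 libraries (vertical axis) against mean CPM (horizontal axis, log scale), 1 dot for each of 9535 genes in endothelial-like cells. Sox18 lies lowest, at -1.33, while Sox7 and Sox17 lie within the band of genes near 0.

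Other measures of the same cells were set beside the Sox18 level. Without the cells that held 3 or more microglia marker UMIs, Sox18 was 429, 164, 437 and 407.5 CPM. Without the barcodes that libraries share, the stroke ratio was -1.39. The cluster with the least Malat1, a nuclear RNA, held 6.02%, 9.77%, 23.8% and 24.9% of endothelial-like cells, and without it the Sox18 ratios were -1.41, 1.42 and 1.32. Haemoglobin transcripts were lower in sham isotype than in all 3 stroke libraries, with Hbb-bs at 89.9, 1057, 839.7 and 984 CPM. Their part in the Sox18 values was not tested. Mitochondrial UMIs made up 2.44%, 2.24%, 2.19% and 2.10% in endothelial-like cells. The expressed genes next to Sox18 on the chromosome did not follow it. Prpf6, 14.2 kb away, had 69.2, 81.0, 68.7 and 69.8 CPM, and the stroke intervals of Prpf6, Samd10, Tcea2 and Rgs19 all held 0. The longest exact run of bases that the annotated Sox18 transcript shares with a Sox17 transcript is 29, and with the Sox7 transcript 20.

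Sox17 (ENSMUSG00000025902, chromosome 1 from 4490931 to 4497354, minus strand) was nearly even over all endothelial-like cells, and low in stroke isotype in 1 small cluster. Endothelial-like cells held 920, 1075, 4919 and 6767 UMIs, or 366 CPM (343 to 390), 375 CPM (353 to 398), 430.2 CPM (418 to 442) and 427 CPM (417 to 437). Both antibody libraries lay above both isotype libraries, whose intervals met each other. Stroke over sham gave a log2 ratio of 0.04 (-0.09 to 0.16). Over stroke isotype, the anti-VCAM1 library gave 0.20 (0.10 to 0.29), and the anti-VLA4 library gave 0.18 (0.09 to 0.28). In arterial-like and capillary-like cells these antibody ratios were smaller and their intervals held 0. They were 0.11 (-0.06 to 0.28) and 0.06 (-0.10 to 0.23) in arterial-like cells, and 0.01 (-0.16 to 0.18) and 0.05 (-0.12 to 0.21) in capillary-like cells. In endothelial-like cells of no named segment they were 0.14 (-0.04 to 0.32) and 0.12 (-0.05 to 0.30). They were larger in the few venous-like cells, at 0.47 (-0.08 to 1.04) and 0.25 (-0.28 to 0.80), with intervals that also held 0. The cluster that held most of the venous-like cells, led by Il1r1, Flrt2 and Vwf, had 50, 48, 65 and 89 cells and Sox17 there stood at 396, 251, 422 and 387 CPM. In that cluster stroke isotype was the low library for Sox17 as well, with -0.66 (-1.18 to -0.16) for stroke over sham. Over stroke isotype the anti-VCAM1 library gave 0.75 (0.29 to 1.23), and anti-VLA4 gave 0.63 (0.19 to 1.09). In the other 5 clusters the stroke intervals of Sox17 held 0, and of their antibody ratios 1 had an interval above 0, at 0.37 (0.0017 to 0.77) for anti-VLA4 in the cluster with the least Malat1. With every library given the same segment makeup, the 2 antibody ratios over all endothelial-like cells were 0.11 and 0.09. With the trend of ratio on gene span removed, they were 0.04 and 0.03. Pericyte markers (10 genes, 1 of them at 0 in sham isotype) summed to 124, 132, 234 and 245 CPM in endothelial-like cells, also higher with the antibodies, and their part in the Sox17 values was not tested. A gene on the opposite strand, Gm37587, overlaps Sox17 and had 15, 14, 38 and 39 UMIs.

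Sox7 (ENSMUSG00000063060, chromosome 14 from 63943673 to 63950732, plus strand) had the fewest UMIs of the members, 167, 161, 716 and 913. These gave 66.4 CPM (56.7 to 77.3), 56.2 CPM (47.9 to 65.6), 62.6 CPM (58.1 to 67.4) and 57.6 CPM (53.9 to 61.4), and all 4 intervals overlapped. Stroke over sham gave -0.24 (-0.56 to 0.08) on the log2 scale. Over stroke isotype, the ratio was 0.15 (-0.09 to 0.41) under VCAM1 blockade, while VLA4 blockade gave 0.03 (-0.21 to 0.29). A difference for Sox7 was not detectable at this depth, and the stroke interval still allows a level lower by 0.56 on the log2 scale.

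Endothelial-like cells were clustered again without the SOXF and list genes to give segments. Arterial-like cells (Bmx and Gkn3 high) numbered 110, 118, 525 and 712. Capillary-like cells (Slc16a1 and Tfrc above arterial-like cells) numbered 308, 288, 656 and 730, and venous-like cells (Slc38a5 and Vwf high) 39, 30, 37 and 54. Not every listed marker followed its segment. Tfrc stood at 371, 405, 360 and 313 CPM in capillary-like and 314, 365, 406 and 347 CPM in venous-like cells. Rgcc, a capillary marker, was higher in arterial-like than in capillary-like cells in every library. Selp and Plvap, venous markers, were at 0 in venous-like cells. Eln, an arterial marker, stood higher in venous-like than in arterial-like cells of both isotype libraries. The remaining 91, 209, 1157 and 1557 cells could not be named, and their share was 16.6% and 32.4% in the isotype libraries and 48.7% and 51.0% in the antibody libraries. This shift in makeup moves with the antibody groups, and the venous-like share also differed, at 7.12%, 4.65%, 1.56% and 1.77%. With every library given the same segment makeup, the ratios for stroke, anti-VCAM1 and anti-VLA4 were -1.47, 1.27 and 1.18 for Sox18, with both antibody values below their counting intervals. They were -0.04, 0.11 and 0.09 for Sox17, and -0.26, 0.22 and 0.10 for Sox7.

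Sox17 was higher in arterial-like than in capillary-like cells. In arterial-like cells it stood at 528, 527, 568 and 549.6 CPM, and in capillary-like cells at 279.6, 302, 304 and 312 CPM. The excess was seen in all 4 libraries, with log2 ratios of 0.92 (0.70 to 1.13), 0.80 (0.59 to 1.01), 0.90 (0.79 to 1.01) and 0.81 (0.72 to 0.91). When each cell was named by its own segment score, the median of these ratios was 0.57 in place of 0.86. Sox18 stood at 495, 174, 539.9 and 479 CPM in arterial-like and 385, 137, 316 and 298 CPM in capillary-like cells. Its arterial excess was 0.36 (0.16 to 0.57), 0.33 (-0.02 to 0.69), 0.77 (0.66 to 0.88) and 0.68 (0.58 to 0.78), with the stroke isotype interval holding 0. With cells named by their own segment score, the median Sox18 excess was 0.24 in place of 0.52. For Sox7 the ratios were 0.17, -0.11, 0.08 and 0.18, and all 4 intervals held 0.

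The Sox18 difference of the stroke isotype library was present in each segment. Stroke over sham was -1.51 (-1.84 to -1.19) in arterial-like and -1.48 (-1.74 to -1.24) in capillary-like cells. In the few venous-like cells Sox18 stood at 282, 64.5, 273 and 268 CPM, with wide intervals. Stroke over sham was -2.11 (-3.33 to -1.10) there, and the antibody ratios were 2.07 (1.08 to 3.27) and 2.04 (1.08 to 3.22). Anti-VCAM1 over stroke isotype was 1.63 (1.36 to 1.93) in arterial-like and 1.20 (0.97 to 1.44) in capillary-like cells, and anti-VLA4 gave 1.46 (1.19 to 1.75) and 1.11 (0.89 to 1.35). Set against sham isotype, capillary-like Sox18 was lower in both antibody libraries, at -0.28 (-0.43 to -0.13) and -0.37 (-0.52 to -0.22). In the cells of no named segment, which are about as many as all others in the antibody libraries, it was lower too, at -0.32 (-0.54 to -0.09) and -0.38 (-0.59 to -0.15). Arterial-like Sox18 against sham gave 0.12 (-0.05 to 0.31) and -0.05 (-0.22 to 0.13).

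UMIs of more than 1 member were found in a minority of cells at equal depth. At 1000 UMIs per cell, 11.8%, 7.86%, 12.8% and 12.1% of endothelial-like cells held UMIs of exactly 2 members, and at most 0.740% held all 3. In stroke isotype, Sox18 was found in 21.02% (15.3 to 27.8) of the 176 cells with Sox17 and in 12.9% (9.87 to 16.4) of the 435 cells without it. The other libraries gave 35.7% against 31.6%, 34.6% against 29.8% and 33.5% against 30.3%. Cells of 1 library are not replicates, so these shares describe the libraries.

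Across 20 values, which are the arterial-like, capillary-like, microglia-like, border-macrophage-like and T-cell-like cells of each library, the genes most like each member were found among 9535 candidates. The points share libraries and mostly contrast endothelial-like with other cells, so r is a description. For Sox7 the highest Pearson r of log2(CPM + 1) was 0.998 with Tox3, followed by Snai2, Odf3b, Fzd3 and Micall2. For Sox17 it was 0.997 with Bvht, a long noncoding RNA, followed by Wfdc1, Tie1, Gstm7 and Ak4. For Sox18 it was 0.992, again with Bvht, followed by Gsta4, Unc45b, Pllp and S100a16. Bvht had 93.5, 91.5, 135 and 125 CPM, so its lowest value was in stroke isotype too, but close to that of sham isotype. Unc45b (54.1, 47.1, 56.7 and 54.9 CPM) and Pllp (187, 167, 204 and 189 CPM) were also lowest in stroke isotype, by less than Sox18. Gsta4 (193, 228, 303 and 300 CPM) and S100a16 (184, 202, 257 and 259 CPM) were lowest in sham isotype. Among the members, r was 0.985 between Sox17 and Sox18, 0.947 between Sox7 and Sox17, and 0.945 between Sox7 and Sox18.

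Genes described as SOXF targets were listed as Cldn5, Cdh5, Robo4, Vcam1, Prox1, Mmp7, Dll4, Notch1 and Tek, of which 7 could be measured. Prox1, the lymphatic fate factor, had 3 UMIs in all and Mmp7 none. In stroke over sham, 1 of the 7 was lower past the fold of -0.5 and none higher, against 6.44% and 6.75% of all genes, with a median of -0.14 against -0.02 over all genes. Intervals lay below 0 for 4 of 7, against 10.2% of all genes. Intervals are narrower for genes with more UMIs. The 7 targets had 316 to 16710 UMIs over both libraries, while the share over all genes takes in genes from 20 UMIs. The interval counts here and for the lists below are therefore not alike in depth with the shares beside them, and nothing is read from the difference. Vcam1, the adhesion molecule blocked in 1 group, had 84.7, 42.6, 29.2 and 20.4 CPM, so over all endothelial-like cells each library stood below the one named before it. Stroke over sham gave -0.98 (-1.33 to -0.66). Over stroke isotype, anti-VCAM1 gave -0.53 (-0.85 to -0.23) and the anti-VLA4 library gave -1.02 (-1.36 to -0.75). Vcam1 was concentrated in venous-like cells, at 809, 595, 322 and 245 CPM. The share of these cells was 7.12%, 4.65%, 1.56% and 1.77%, and the parts of level and share in the overall Vcam1 values were not tested. Without venous-like cells Vcam1 stood at 26.2, 14.3, 22.3 and 14.7 CPM. The stroke ratio was then -0.83 (-1.49 to -0.27), while that of anti-VCAM1 turned to 0.60 (0.15 to 1.17) and that of anti-VLA4 to 0.04 (-0.45 to 0.57). Without the whole cluster that held most venous-like cells, the anti-VCAM1 ratio was 0.46 (-0.0035 to 1.02), an interval that held 0. By segment it was 2.18 (1.23 to 3.89) in capillary-like cells, at 4.58 CPM in stroke isotype and 24.3 CPM with anti-VCAM1. It was -0.12 (-0.73 to 0.54) in arterial-like cells and 0.15 (-1.08 to 1.70) in cells of no named segment. Dll4, a Notch ligand of arterial and tip cells, had 67.2, 51.3, 65.8 and 75.7 CPM, with ratios of -0.38 (-0.72 to -0.06), 0.35 (0.10 to 0.62) and 0.55 (0.31 to 0.82). Cldn5, the main claudin of brain endothelial tight junctions, had 3265, 2969, 3552 and 3461 CPM, with ratios of -0.14 (-0.18 to -0.09), 0.26 (0.22 to 0.29) and 0.22 (0.19 to 0.25). Dll4 and Cldn5 thus had their lowest value in stroke isotype, as Sox18 did, with smaller differences. Tek, the angiopoietin receptor, instead had 686, 582, 467 and 442 CPM. Cdh5, which encodes VE-cadherin, was nearly even at 502, 496, 486 and 487 CPM. For the antibodies, 4 of 7 had intervals below 0 in each comparison and 2 above, against 21.3% and 11.8% of all genes with anti-VCAM1 and 22.4% and 12.3% with anti-VLA4.

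Promoter windows of 250 bases before the transcription start were read from RefSeq on GRCm38.p6, where 5 of the 7 measurable targets had an entry and no SOXF gene did. They were searched on both strands for AACAAT, a form of the SOX binding motif, whose reverse complement is ATTGTT. Of 32851 windows of that length, 9.42% held a match, as did 1 of the 5 targets. That match, in Tek, begins 63 bases before the start. The Tek window (chr4:94739039-94739288, plus strand) is shown because it holds the match, in capitals, and the Cldn5 window (chr16:18776597-18776846, plus strand) because it is the target with most UMIs and holds none.
Tek: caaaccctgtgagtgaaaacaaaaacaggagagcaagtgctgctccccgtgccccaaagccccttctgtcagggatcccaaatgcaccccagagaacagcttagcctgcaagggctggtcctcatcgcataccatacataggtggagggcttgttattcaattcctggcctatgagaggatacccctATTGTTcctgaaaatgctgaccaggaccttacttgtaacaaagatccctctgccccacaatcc
Cldn5: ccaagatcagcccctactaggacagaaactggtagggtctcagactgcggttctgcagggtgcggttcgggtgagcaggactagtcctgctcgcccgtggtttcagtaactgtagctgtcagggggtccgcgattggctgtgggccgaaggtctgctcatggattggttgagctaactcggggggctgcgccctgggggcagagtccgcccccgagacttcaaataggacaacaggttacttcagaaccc
A match describes the letters of the window and says nothing of binding.

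Of 17 other Sox genes in the tables, 5 had 20 UMIs or more in endothelial-like cells within a comparison. Sox13, a SOXD member, had 108, 93.9, 73.1 and 75.7 CPM, with ratios of -0.20 (-0.45 to 0.05), -0.36 (-0.56 to -0.16) and -0.31 (-0.50 to -0.12). Sox4, a SOXC member, had 11.1, 13.96, 17.5 and 16.02 CPM, and its 3 intervals held 0, as did those of Sox9 at 11.1, 6.98, 8.05 and 6.68 CPM. Sox12 had 4, 14, 16 and 35 UMIs, or 1.59, 4.89, 1.40 and 2.21 CPM, and Sox6 had 3, 4, 10 and 18 UMIs. Lower past the fold were Sox9 in stroke, at -0.60 (-1.58 to 0.21), and Sox12 with the antibodies, at -1.30 (-2.93 to -0.66) and -0.88 (-2.08 to -0.14). That is 1 of 3, 1 of 4 and 1 of 5 measurable genes, against 6.44%, 11.9% and 13.6% of all genes. None of these had its lowest value in stroke isotype.

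The list of 27 endothelial transcription factors, 26 of them measurable, had no gene past the fold in either direction for stroke over sham, with a median of -0.17 against -0.02 over all genes and intervals below 0 for 12 of 26, against 10.2% of all genes. Past the fold lay 6.75% of all genes on the higher and 6.44% on the lower side. The 26 genes had 46 to 10759 UMIs over both libraries, so the limit of depth given for the targets holds for their interval counts too. Klf4, a flow-responsive factor, had 1047, 817, 964 and 980.4 CPM and was lowest in stroke isotype. Its relative Klf2 had 2128, 1889, 2594 and 2556 CPM, with ratios of 0.46 (0.42 to 0.50) and 0.44 (0.40 to 0.48) for the antibodies. Erg, an ETS factor of endothelial identity, had 425, 388, 338 and 351 CPM. Etv6, another ETS factor, had 247, 198, 148 and 133 CPM. It was the 1 member of 26 lower past the fold with anti-VLA4, at -0.57 (-0.71 to -0.44), against 13.6% of all genes. Foxp1 had 1275, 1071, 787 and 770.3 CPM. For the antibodies the list's medians were -0.16 and -0.14, against -0.07 and -0.09 over all genes. They moved to -0.03 and -0.05 with the trend on gene span removed, and to -0.06 and -0.03 with median-of-ratios scaling, which raises all genes by 0.10 and 0.11. Intervals lay below 0 for 12 of 26 with each antibody, against 21.3% and 22.4% of all genes, and above 0 for 4 and 5, against 11.8% and 12.3%.

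The 5 VEGF receptors had a median of -0.10 in stroke over sham, against -0.02 over all genes, and it was 0.10 after thinning to 1000 UMIs. With the antibodies their medians were -0.39 and -0.22, against -0.07 and -0.09 over all genes. All 5 intervals lay below 0 in each antibody comparison, against 21.3% and 22.4% of all genes. These receptors had at least 545 UMIs over both libraries, so the limit of depth given for the targets holds here as well. The medians were -0.22 and -0.05 with the trend on gene span removed, and -0.29 and -0.12 with median-of-ratios scaling. Nrp2, a VEGF co-receptor, was the 1 gene of 5 past the fold in both, at 69.2, 56.2, 33.6 and 33.7 CPM. Over all genes, 11.9% and 13.6% were lower past the fold. Of 15 genes of the Wnt/beta-catenin pathway, which acts with Sox17 in brain endothelium, 1 was lower past the fold and none higher in each comparison. Over all genes, 6.44%, 11.9% and 13.6% were lower past the fold and 6.75%, 4.19% and 4.4% higher, in the order stroke, anti-VCAM1 and anti-VLA4. Intervals lay below 0 for 4, 5 and 6 of the 15, against 10.2%, 21.3% and 22.4% of all genes, and above 0 for 0, 3 and 3, against 8.1%, 11.8% and 12.3%. In stroke this was Notum, a secreted Wnt inhibitor, at 65.6, 43.3, 58.9 and 59.1 CPM, with -0.59 (-0.95 to -0.26). With the antibodies it was Znrf3, a ligase that removes Wnt receptors, at 109, 96.4, 67.5 and 61.8 CPM. Of 12 measurable Notch and arterial genes none was past the fold in stroke, against 6.75% of all genes higher and 6.44% lower. With anti-VCAM1 none of 13 was, against 4.19% and 11.9%. With anti-VLA4, Dll4 and Hey1 were higher, 2 of 12 against 4.4% of all genes, and none was lower, against 13.6%. Intervals lay below 0 for 4, 2 and 3 of these genes and above 0 for 1, 3 and 3, against the all-gene shares given for the Wnt list. Hey1, a Notch target, had 66.04, 64.6, 86.6 and 103 CPM, with 0.42 (0.19 to 0.66) and 0.66 (0.45 to 0.89). Hes1, also a Notch target, had 229.5, 311, 363 and 369 CPM, so all 3 stroke libraries were above sham.

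**Figure D5:**
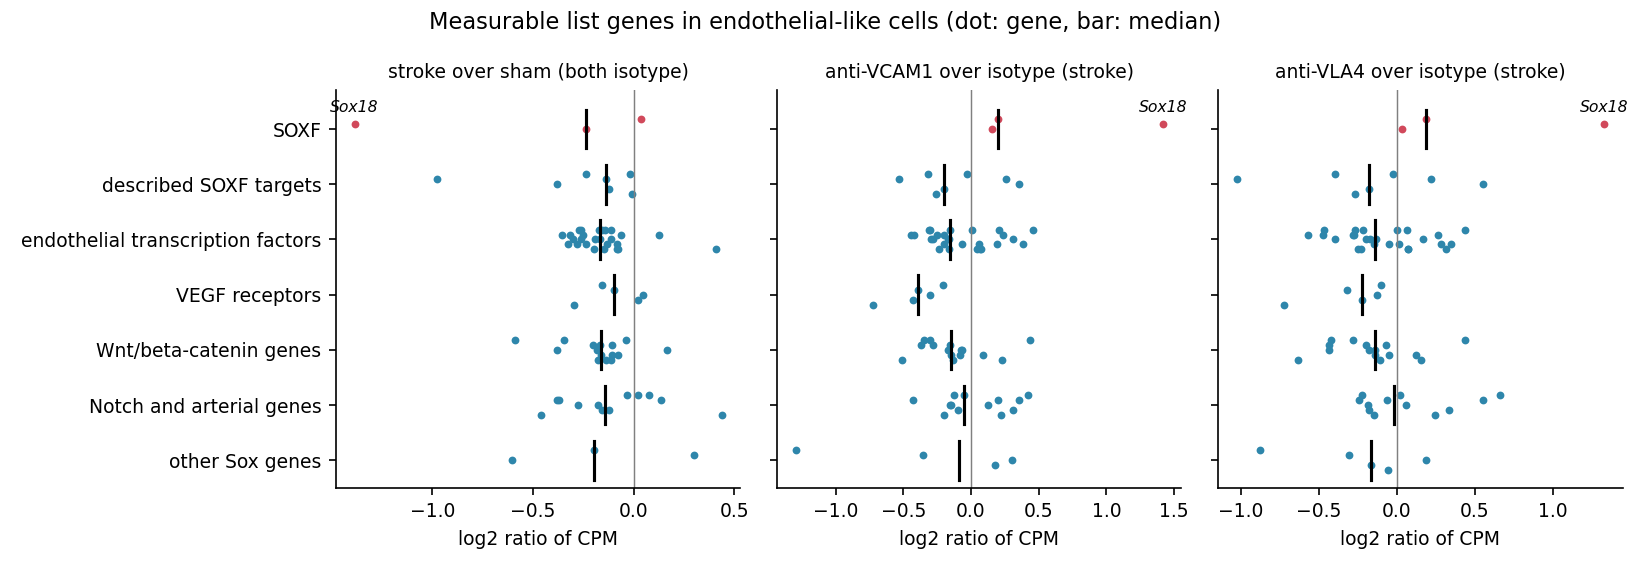
Log2 ratios (horizontal axis) of each measurable list gene in endothelial-like cells for 3 comparisons, with 1 dot per gene, bars for list medians, and lists on the vertical axis. Sox18 lies outside the range of every other listed gene in stroke over sham and in both antibody comparisons.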

How the data were processed

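Per the file headers, the deposited matrices are output of Cell Ranger 7.0.1, and their values are raw UMI counts for each gene in each barcode. Per the submitters' processing notes, Cell Ranger 6.0.0 and Seurat 4.3.0.1 were used and builds mm10 and GRCh38 are named, with no role given. The alignment options and gene annotation release are not given in the sources used here. The libraries totalled 10008987, 17130182, 25099141 and 34721356 UMIs over 1541, 2891, 4751 and 6361 barcodes.

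Cells with at least 500 UMIs, 200 genes and at most 10% mitochondrial UMIs were kept, and Scrublet in scanpy 1.11.5 marked 11, 24, 63 and 124 doublets, which were left out. Kept cells were clustered together (Leiden resolution 1, 2000 variable genes, 30 components, 15 neighbours) without the list genes. A cluster was named by its markers when at least 3 were detected and no other class led, and endothelial-like cells were clustered again for segments. CPM came from UMI sums over the cells of a class within 1 library. Levels have exact Poisson intervals, shares exact Clopper-Pearson intervals, and log2 ratios (pseudocount 1 CPM) conditional binomial intervals computed without the pseudocount. The code was tested on simulated data. A gene was measurable with 20 UMIs over both libraries. Limits for a count of 0 and intervals cover counting error only.

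The members, lists and markers were chosen with earlier results of these data known. Named genes were all members, up to 4 per list with the largest absolute ratio at 100 UMIs or more, other Sox genes with 20 UMIs, and the 5 genes most correlated with each member. Other list genes given (Cdh5, Erg), the ranks and distances, neighbouring genes, shared transcript runs, cells at 3000 UMIs, ratios over sham, marker sums, the motif search, Vcam1 by segment and 4 alternatives were chosen after seeing the data. Clusters left unnamed held 487 cells.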

Additional observations from a re-analysis of the deposited data

Results flagged for a closer look

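Signal of 2 members was found in cells that enter no ratio between libraries above, though they enter the correlations. The counting intervals of these levels lay above those of both isotype libraries. In border-macrophage-like cells of the anti-VLA4 library, Sox17 stood at 38.1 CPM and Sox18 at 52.6 CPM, in 8 and 9 of 93 cells. The other 3 libraries held no Sox17 UMI and 1 Sox18 UMI in that class. Summed endothelial markers in these cells were 10.9% of the endothelial-like level, against 0.785%, 0.775% and 2.04% in the others, and their part in the signal was not tested. In microglia-like cells the anti-VCAM1 library had 1.38 CPM of Sox17 and the anti-VLA4 library 1.64 CPM, against 0 and 0.107 CPM in the isotype libraries. Endothelial markers there were 0.344%, 0.431%, 0.661% and 0.723% of the endothelial-like level.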

How the results depend on the processing

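Each ratio of a member was recomputed under 15 alternatives, 3 of them added after seeing the data, and no member's ratio called by its interval changed sign. For Sox18 the stroke ratio ranged from -1.54 to -1.33. The anti-VCAM1 ratio ranged from 1.12 to 1.52, and the anti-VLA4 ratio from 1.03 to 1.44. The ratios in the next 3 sentences lay outside the counting interval of the reported value, and the cause was not tested. With the trend on gene span removed, Sox17 was 0.0446 and Sox18 1.12 for anti-VCAM1, and Sox17 0.0343 and Sox18 1.03 for anti-VLA4. With median-of-ratios scaling, which moves all genes by 0.10 and 0.11, Sox17 was 0.30 and 0.29. With equal segment makeup Sox18 was 1.27 and 1.18, and Sox17 with anti-VLA4 was 0.0882. Without venous-like cells, an alternative added after seeing the data, the Vcam1 ratio turned from -0.53 to 0.60 for anti-VCAM1 and from -1.02 to 0.0398 for anti-VLA4. Leaving out the whole cluster that held most of them gave 0.46 and -0.0088, with intervals that held 0. The median arterial ratio of Sox17 was 0.78 at sub-clustering resolution 0.5. Naming each cell by its segment score gave 0.57 for Sox17 and 0.24 for Sox18. Without a minimum of UMIs, genes higher and lower past the fold were 1944 and 1626 for stroke in place of 718 and 685, 876 and 2337 for anti-VCAM1 in place of 496 and 1409, and 818 and 2521 for anti-VLA4 in place of 535 and 1658, since far more low genes are then counted. No paired analysis was possible because each group is 1 library. Leaving out a replicate was not possible for the same reason. Depth limits Sox7 most, at 161 to 913 UMIs. The stricter cell filter was applied within the existing clusters.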

Other observations

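The unnamed cluster with endothelial and pericyte markers together held 2, 8, 130 and 196 cells in sham isotype, stroke isotype, anti-VCAM1 and anti-VLA4. In its last 2 libraries Sox7 stood at 53.8 and 43.2 CPM, Sox17 at 409 and 353 CPM, and Sox18 at 461 and 399.9 CPM. In stroke isotype its 8 cells held 9 Sox18 UMIs, or 218 CPM (99.5 to 413).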
